A study of Homo sapiens with 9 samples.

Results

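Heat shock proteins and their helpers were followed in A549 cells, an established human line derived from lung adenocarcinoma that is usually grown as an adherent layer. A probe set belonged to the group when its platform gene symbol began with HSPA, HSPB, HSPD, HSPE, HSPH, HSP90, DNAJA, DNAJB, DNAJC or CCT, or was BAG plus a digit. This gave 26 of the 14884 genes named on the array, read by 39 of its 53617 probe sets. The HSPA family gave 25 probe sets of 12 genes, HSPB 5 of 5, BAG 5 of 5, HSPD and HSPH 1 each, and DNAJC 2, both of them antisense RNA genes. No probe set was named for an HSPE, HSP90, DNAJA, DNAJB or CCT gene, so HSP90, the J-domain proteins and the cytosolic chaperonin are not analysed here. The set therefore describes HSP70-type chaperones, their nucleotide exchange factors, small heat shock proteins and mitochondrial HSP60.

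All cells were cultured for 5 days in medium with fetal bovine serum. The first group sat on low-attachment plates with an additive labelled FP001 at 0.015% (w/v), the second on low-attachment plates in normal medium, which had water in place of FP001, and the third, the control, on ordinary attachment plates in normal medium. Each group had 3 arrays of total RNA, and the array titled as attachment replicate 1 was left out, which leaves 3, 3 and 2 arrays. The 8 arrays used had medians of 23.3 to 24.1 and correlated in rank at 0.961 to 0.985, whereas the array left out had a highest rank correlation of −0.00191 with any other. The labels do not say whether replicates are separate cultures. The p-values therefore cover the spread between these arrays alone, which may be technical, and the small number of arrays limits every value. Of 13 markers fixed for A549, 6 were named and read at least 70.4 on all 8 arrays, and of these KRT19 rose 2.04-fold and 2.93-fold on low-attachment plates without and with FP001, KRT7 fell 1.45-fold without it, and with FP001 KRT18 rose 1.23-fold and EPCAM fell 1.44-fold (limma adjusted p = 0.0158, 0.00135, 0.0422, 0.00917 and 0.0420). Of 6 alveolar and lung markers, 5 were named. NKX2-1 read 21.0 to 27.3, around the array median. SFTPB (27.5 to 41.6) and SFTPC (31.8 to 43.8) read above it on all 8 arrays, and SFTPA1 (7.12 to 10.1) below it. Together with NAPSA, these genes summed to 124.8 to 161.7 with FP001, 127.2 to 142.1 on low-attachment plates and 117.5 to 118.7 on attachment plates. None of the 4 lung markers tested was called in any comparison. Of the markers of other cell types, 2 fibroblast, 3 leukocyte and 3 endothelial genes were named. The leukocyte genes (CD14, CD68 and LYZ) summed to 621.9 to 953.5 with FP001, 557.0 to 789.3 on low-attachment plates and 423.6 to 502.9 on attachment plates. The fibroblast genes DCN and LUM summed to 82.7 to 440.1, 27.9 to 250.4 and 31.6 to 96.7 in the same order of groups, with DCN at 3.91 or below on every array. The endothelial genes summed to 55.8 to 71.5, 51.2 to 55.9 and 46.1 to 52.3. LYZ rose on low-attachment plates without and with FP001, by 4.78-fold and 6.07-fold (limma adjusted p = 0.00414 and 0.00124), and CD68 rose with FP001 by 1.67-fold (0.0146). CD14 had log2 fold changes of 0.08 and −0.12 (limma adjusted p = 0.796 and 0.610). The part of these genes in the results below was not tested.

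Chaperones bind unfolded stretches of protein. HSP70 proteins (HSPA) do so in a cycle driven by ATP, exchange factors of the HSP110 type (HSPH1, HSPA4, HSPA4L) and the BAG proteins make them let go, and small heat shock proteins (HSPB) hold clients without ATP. HSPA9 is the HSP70 of mitochondria and HSPD1 the chaperonin there. Stress raises many of these genes through the heat shock factor HSF1, which binds repeats of GAA and its complement TTC in their promoters.

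Of the 26 genes, 22 passed a filter that asked for an intensity at or above the array median on at least 3 of the 8 arrays, and these were tested within a limma fit of 10916 genes. On low-attachment plates in normal medium, 5 of the 22 fell against attachment plates, 1 rose and 16 did not pass (adjusted p under 0.05). Over all genes tested 5.76% were called lower and 4.31% higher, or 10.1% in all. The falls were HSPH1, HSPA4L, HSPA2, HSPA1L and HSPB1, all proteins of the cytosol and nucleus, and the rise was BAG1. The median log2 fold change was −0.26 over the 22 genes and 0.01 over all genes. In 18 of the 22 the log2 fold change was below 0, against 48.5% of all genes, and in 15 every low-attachment array read below both attachment arrays, against 23.4%. In 1, BAG1, every low-attachment array read above both, against 22.2% of all genes. Intensity per array cannot tell fewer cells of a type from less RNA per cell.

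With FP001 on low-attachment plates, 9 of the 22 fell against attachment plates and none rose, where 11.4% and 8.08% of all genes tested were called lower and higher, or 19.5% in all. The 9 were HSPH1, HSPA2, HSPB1, HSPA4L, HSPA1B, HSPA1L, BAG3, HSPA9 and HSPBAP1. The median log2 fold change was −0.21, against 0.02 over all genes, and 17 of the 22 were below 0, against 47.5% of all genes. In 12 of the 22 every FP001 array read below both attachment arrays, against 26.2% of all genes. In 3 (BAG1, BAG5 and HSPA12B) every FP001 array read above both, against 26.5% of all genes. After quantile normalization the calls were 6 lower and 1 higher (BAG1), and HSPA1B, HSPA9 and HSPBAP1 missed the threshold (adjusted p = 0.0664, 0.116 and 0.0654). Without attachment replicate 3, the members called numbered 4 with FP001 and 3 without it, and the FP001 count was 5 without attachment replicate 2 or FP001 replicate 2. This comparison uses the same 2 attachment arrays as the one before it, so their calls are not independent of each other. The shares of all genes above belong to the main fit. They are not given for quantile normalization or for leaving out an array. Changes in the counts under those settings therefore cannot be taken as particular to the members.

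**Figure D1:**
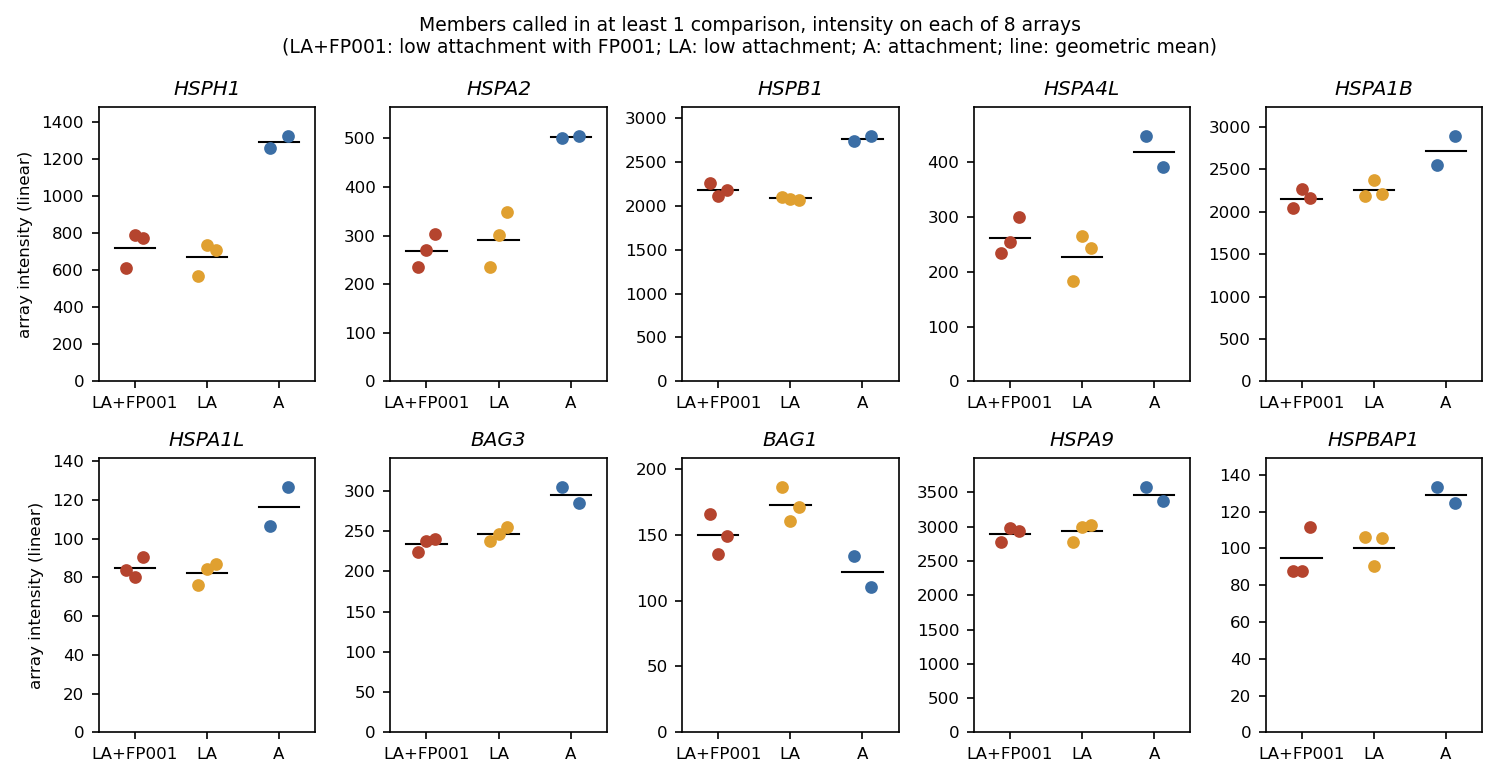
Array intensity on a linear axis for the 10 genes called in at least 1 comparison, with 1 point per array (3 with FP001, 3 on low-attachment plates, 2 on attachment plates) and a line at the geometric mean of the group. For 9 of the genes both attachment points lie above all 6 low-attachment points, and for BAG1 they lie below them.

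Exchange factors of the HSP110 type included the largest fall on low-attachment plates in normal medium. HSPH1, also known as HSP105, read 612, 787 and 774 with FP001, 570, 738 and 709 on low-attachment plates, and 1257 and 1320 on attachment plates. Every low-attachment array, with or without FP001, read well below both attachment arrays. HSPH1 fell 1.93-fold on low-attachment plates (log2 fold change −0.95 ± 0.13 (SE), limma adjusted p = 0.00230). With FP001 it fell 1.79-fold against attachment plates (−0.84 ± 0.13, limma adjusted p = 0.00238). These calls held when any 1 array was left out, with adjusted p-values up to 0.0277 and 0.0245. Here and below, leaving out an attachment array leaves 1 in that group, which is assumed to vary like the other groups, so such a setting is a weak check.

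HSPA4L, a relative of HSPH1 that also swaps nucleotides on HSP70, read 234, 254 and 299 with FP001, 182, 265 and 243 on low-attachment plates, and 446 and 391 on attachment plates. The groups on low-attachment plates did not overlap with the attachment arrays. It fell 1.84-fold on low-attachment plates (−0.88 ± 0.16, limma adjusted p = 0.00723) and 1.60-fold with FP001 (−0.68 ± 0.16, limma adjusted p = 0.0150). Without attachment replicate 2, which read higher of the pair, both calls missed the threshold (adjusted p = 0.0805 and 0.125). HSPA4, the third of this type, read 635, 741 and 753 with FP001, 601, 732 and 687 on low-attachment plates, and 862 and 828 on attachment plates. Its groups did not overlap either, but its log2 fold changes of −0.33 ± 0.11 and −0.26 ± 0.11 against attachment plates did not pass the test (limma adjusted p = 0.0720 and 0.111). With the replicate number as a block, the low-attachment value was −0.25 and passed (0.0374). The block assumes that attachment and low-attachment arrays of the same number belong together, which the labels do not state. It also had no attachment array numbered 1.

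Among the HSP70 proteins themselves, HSPA2, a form best known from the testis, changed most. It read 235, 271 and 304 with FP001, 234, 302 and 348 on low-attachment plates, and 502 and 504 on attachment plates. The attachment arrays lay close together and above all 6 others. HSPA2 fell 1.73-fold on low-attachment plates (−0.79 ± 0.16, limma adjusted p = 0.0109) and 1.87-fold with FP001 (−0.91 ± 0.16, limma adjusted p = 0.00362). On low-attachment plates the call was lost without attachment replicate 2 or 3 (adjusted p = 0.0812 and 0.0729), while with FP001 it held without any 1 array (adjusted p up to 0.0375).

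The stress-inducible HSP70 genes HSPA1A and HSPA1B and their neighbour HSPA1L, a form also known from the testis, lie together on chromosome 6. HSPA1A and HSPA1B encode almost the same protein, so signal may be shared between their probe sets, and the split between them is uncertain. The probe set that stood for HSPA1A read 2622, 2908 and 2747 with FP001, 2725, 2934 and 2690 on low-attachment plates, and 3013 and 3429 on attachment plates. That for HSPA1B read 2039, 2264 and 2162 with FP001, 2186, 2367 and 2202 on low-attachment plates, and 2547 and 2886 on attachment plates. In both genes every low-attachment array lay below both attachment arrays. The smallest gap between the low-attachment and attachment arrays was less than the difference between the attachment arrays. HSPA1B fell 1.26-fold with FP001 (−0.33 ± 0.08, limma adjusted p = 0.0175), and this call was lost without attachment replicate 3 (adjusted p = 0.130). Its log2 fold change on low-attachment plates was −0.27 ± 0.08 (limma adjusted p = 0.0583). HSPA1A gave −0.22 ± 0.08 with FP001 and −0.21 ± 0.08 without (limma adjusted p = 0.0749 and 0.126).

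Each of the 3 genes had 5 probe sets, and they did not all give the same call. In a fit of all probe sets kept, the 5 of HSPA1B had log2 fold changes of −0.41 to −0.33 with FP001 against attachment plates, and 5 were called. The 5 of HSPA1A ranged from −0.26 to −0.22, and none was called (limma adjusted p = 0.0574 to 0.102). For HSPA1L, the probe set that stood for the gene read 83.8, 80.5 and 90.4 with FP001, 76.0, 84.4 and 86.7 on low-attachment plates, and 107 and 126 on attachment plates. That probe set fell 1.41-fold on low-attachment plates (−0.50 ± 0.11, limma adjusted p = 0.0188) and 1.37-fold with FP001 (−0.45 ± 0.11, limma adjusted p = 0.0183). The other 4 had log2 fold changes of −0.32 to −0.28 and −0.31 to −0.29 and were not called in the fit of all probe sets (adjusted p = 0.177 to 0.183 on low-attachment plates and 0.0925 to 0.145 with FP001), so the calls of HSPA1L rest on 1 of its 5 probe sets. Without attachment replicate 3 its calls were lost in both comparisons (adjusted p = 0.146 and 0.133). The same happened without low-attachment replicate 1 in the first (0.0515) and without FP001 replicate 2 in the second (0.0573). Of the 5 probe sets, 3 of HSPA1A and 3 of HSPA1L held identical values on all 8 arrays and are not separate readings.

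**Figure D2:**
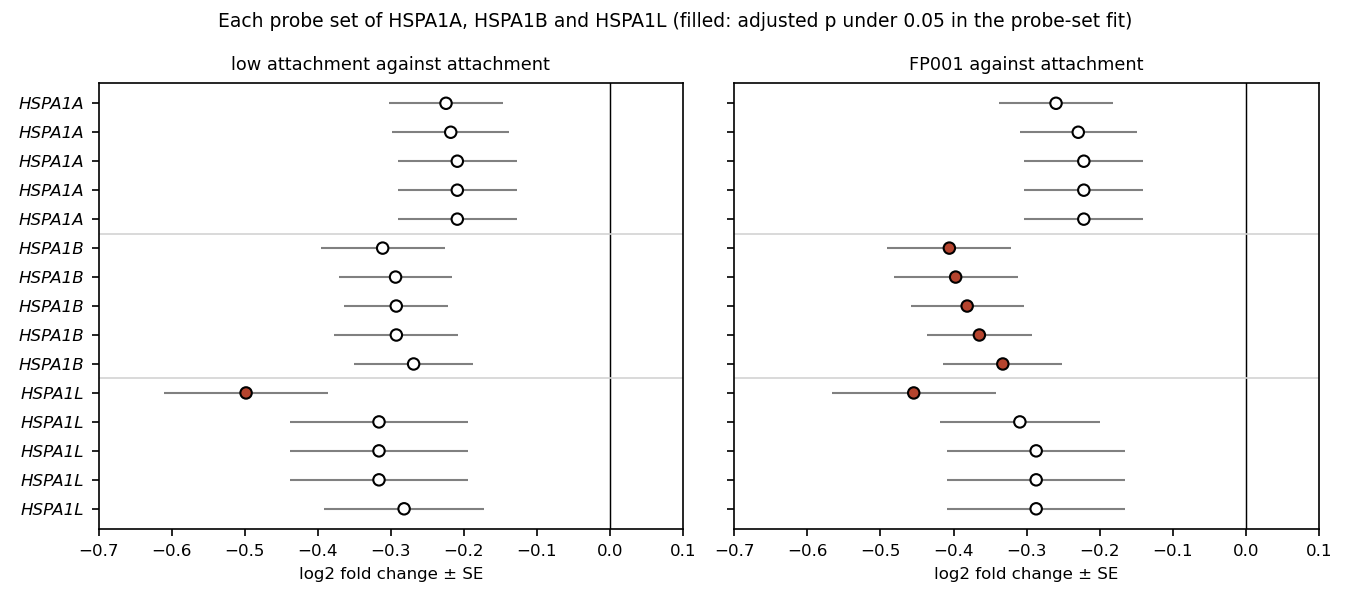
Log2 fold change ± SE against attachment plates for each of the 5 probe sets of HSPA1A, HSPA1B and HSPA1L, on low-attachment plates (left) and with FP001 (right), filled where the adjusted p in the fit of all probe sets was under 0.05. All 15 points lie below 0, and 1 is filled on the left against 6 on the right.

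The remaining HSP70-type genes did not pass the test on low-attachment plates. HSPA14, which works at the ribosome, read 145, 164 and 171 with FP001, 105, 150 and 148 on low-attachment plates, and 155 and 185 on attachment plates. Low-attachment replicate 1 stood well below the others here, and the log2 fold change of −0.36 ± 0.16 (limma adjusted p = 0.183) was −0.19 without it. HSPA12B read 81.7, 79.4 and 66.6 with FP001, 64.2, 71.7 and 62.0 on low-attachment plates, and 59.7 and 65.2 on attachment plates, with overlap on low-attachment plates and none with FP001. HSPA12A and HSPA12B, distant relatives of unusual sequence, had log2 fold changes of −0.32 ± 0.12 and 0.08 ± 0.12 on low-attachment plates (limma adjusted p = 0.112 and 0.721) and −0.20 ± 0.12 and 0.28 ± 0.12 with FP001 (limma adjusted p = 0.238 and 0.124). A second probe set of HSPA12A read near the array median, at 22.0 to 29.6. In the fit of all probe sets it gave 0.11 ± 0.16 on low-attachment plates (limma adjusted p = 0.734), so it bears little on the first. HSPA6, a form known for being nearly silent without stress, read 19.2, 30.6 and 20.7 with FP001, 20.1, 21.3 and 22.3 on low-attachment plates, and 19.4 and 22.1 on attachment plates. It reached the array median on 1 of 8 arrays and was not tested, as was the non-coding HSPA7, which also reached it on 1 array and read 13.8 to 23.9.

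Small heat shock proteins were led by HSPB1, known as HSP27, which holds unfolded proteins and binds actin. It read 2264, 2112 and 2177 with FP001, 2102, 2082 and 2067 on low-attachment plates, and 2741 and 2790 on attachment plates. The arrays within each group lay close together and both low-attachment groups lay below the attachment arrays. HSPB1 fell 1.33-fold on low-attachment plates (−0.41 ± 0.06, limma adjusted p = 0.00375) and 1.27-fold with FP001 (−0.34 ± 0.06, limma adjusted p = 0.00543). Both calls held without any 1 array (adjusted p up to 0.0355 and 0.0403). HSPBAP1, a protein that binds HSPB1, read 87.9, 87.5 and 112 with FP001, 106, 90.4 and 105 on low-attachment plates, and 133 and 125 on attachment plates. It fell 1.36-fold with FP001 (−0.44 ± 0.13, limma adjusted p = 0.0376). That call was lost without either attachment array, FP001 replicate 1 or 2, or low-attachment replicate 3 (adjusted p = 0.0526 to 0.196), and in the fit of all probe sets (0.0609), and on low-attachment plates HSPBAP1 did not pass (−0.36 ± 0.13, limma adjusted p = 0.105). HSPB8, a partner of BAG3, had log2 fold changes of −0.12 ± 0.17 and 0.08 ± 0.17 on low-attachment plates without and with FP001 (limma adjusted p = 0.688 and 0.743). The read-through transcript HSPB2-C11orf52 passed the filter on just 3 arrays, read 16.7 to 29.0 and was not called. HSPB3 read 8.43 to 14.8, reached the median on no array and was not tested.

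BAG proteins bind the ATPase part of HSP70. Of the 5 tested, BAG1 was called on low-attachment plates in normal medium and BAG3 with FP001, both against attachment plates. Between the low-attachment groups neither was called, at −0.20 ± 0.11 for BAG1 and −0.08 ± 0.08 for BAG3 (limma adjusted p = 0.514 and 0.736). BAG1, which links HSP70 to the proteasome, read 166, 136 and 149 with FP001, 186, 161 and 171 on low-attachment plates, and 134 and 110 on attachment plates. It was the 1 member called higher. BAG1 rose 1.42-fold on low-attachment plates (0.50 ± 0.12, limma adjusted p = 0.0261), and its log2 fold change with FP001 was 0.30 ± 0.12 (limma adjusted p = 0.104). The rise was lost without attachment replicate 3 (adjusted p = 0.184), without low-attachment replicate 1 or 3 (0.0674 and 0.0630), and in the fit of all probe sets (0.0580).

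BAG3, an HSF1-regulated protein that sends clients of HSP70 to autophagy, read 224, 237 and 240 with FP001, 237, 246 and 255 on low-attachment plates, and 304 and 285 on attachment plates. All low-attachment arrays lay below the attachment pair. BAG3 fell 1.26-fold with FP001 against attachment plates (−0.34 ± 0.08, limma adjusted p = 0.0215). Its log2 fold change without FP001 was −0.26 ± 0.08 (limma adjusted p = 0.0795). The call was lost without attachment replicate 2 or 3 (adjusted p = 0.145 and 0.0559) and without FP001 replicate 1 or 2 (0.0565 and 0.0504). BAG2, an inhibitor of the ubiquitin ligase STUB1, BAG4 and BAG5 were not called, with log2 fold changes on low-attachment plates of −0.25 ± 0.13, −0.10 ± 0.09 and 0.02 ± 0.08 (limma adjusted p = 0.271, 0.552 and 0.917).

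In mitochondria, HSPA9, known as mortalin, read 2775, 2979 and 2932 with FP001, 2771, 2999 and 3027 on low-attachment plates, and 3571 and 3366 on attachment plates. All 6 low-attachment arrays lay below both attachment arrays. HSPA9 fell 1.198-fold with FP001 (−0.26 ± 0.07, limma adjusted p = 0.0268), and gave −0.24 ± 0.07 without FP001, just short of the threshold (limma adjusted p = 0.0513) and past it with the replicate number as a block (−0.21, 0.0433). As for HSPA4, that block rests on a pairing the labels do not state. The FP001 call was lost without any of the 3 FP001 arrays or either attachment array (adjusted p = 0.0504 to 0.172). HSPD1, the mitochondrial chaperonin known as HSP60, read 223, 287 and 273 with FP001, 185, 258 and 271 on low-attachment plates, and 267 and 324 on attachment plates. Its groups overlapped, and neither −0.32 ± 0.17 on low-attachment plates nor −0.18 ± 0.17 with FP001 passed (limma adjusted p = 0.256 and 0.477). No member is a resident of the endoplasmic reticulum.

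The antisense RNA genes named after J-domain genes read near the array median. DNAJC27-AS1 read 25.1, 24.7 and 22.4 with FP001, 23.3, 23.7 and 20.6 on low-attachment plates, and 23.7 and 27.5 on attachment plates. Its groups overlapped, and it was tested and not called in any comparison (adjusted p = 0.432, 0.683 and 0.799). DNAJC9-AS1 read 18.9, 26.04 and 25.99 with FP001, 16.9, 18.0 and 19.3 on low-attachment plates, and 18.3 and 19.0 on attachment plates, reached the median on 2 arrays and was not tested.

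**Figure D3:**
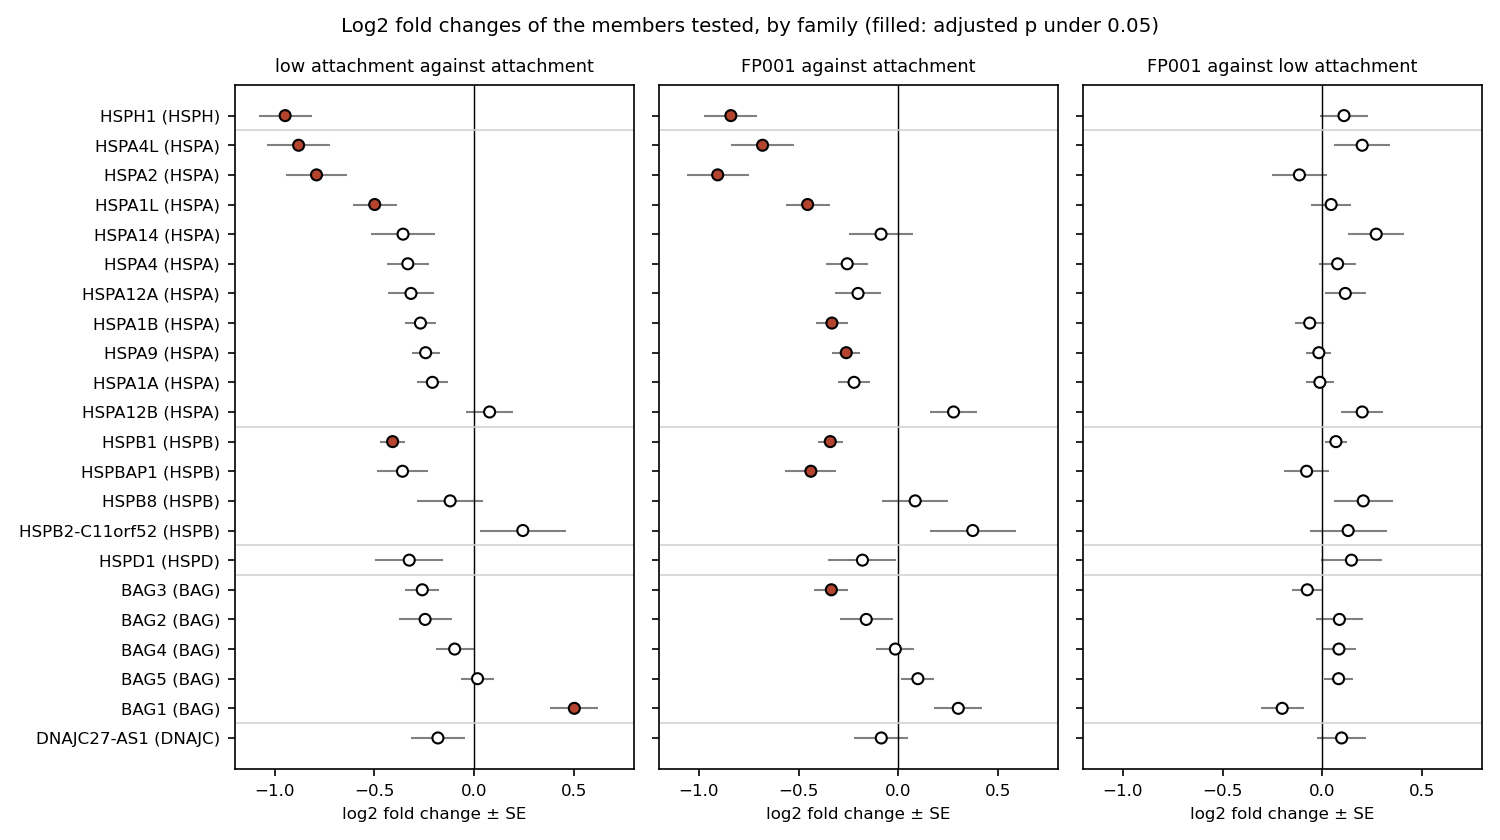
Log2 fold change ± SE of the 22 genes tested, grouped by family, in 3 comparisons: low attachment against attachment, FP001 against attachment, and FP001 against low attachment. Filled points had an adjusted p under 0.05, which 6, 9 and 0 genes reached, and the 3 largest falls on low-attachment plates were HSPH1, HSPA4L and HSPA2.

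Promoter sequence was read because heat shock factors act through letters close to the start of transcription. RefSeq promoter windows (build GRCh38.p14, 250 bases before to 50 after a start) were available for 21 of the 26 genes, in 27 windows. A pair of heat shock units was searched as GAANNTTC or TTCNNGAA, each of which reads the same on both strands, and 3 units in a row as GAANNTTCNNGAA or TTCNNGAANNTTC, which are the same motif on opposite strands and contain the pair. A pair was found in 11 of the 27 windows and in 13.5% of all 35116 windows, and 3 units in 2 of the 27 and in 0.490% of all. Of the 21 genes with a window, 11 had a pair. Of the 10 genes called in any comparison, 5 had a pair (HSPA1B, HSPA1L, HSPA4L, HSPA9 and HSPB1), a similar share, and none had 3 units. The HSPA9 match runs across the start. The stretches below are the 200 bases before the start, 5′ to 3′ on the strand of the gene, with matches in capitals. HSPA1A, which was called in no comparison, and HSPB1, which fell, show the pair in a stress-inducible HSP70 and in HSP27, HSPA6 shows 3 units in a gene read near the median, and HSPH1, the largest fall on low-attachment plates in normal medium, holds neither form.
HSPA1A (chr6:31815343-31815542, plus strand): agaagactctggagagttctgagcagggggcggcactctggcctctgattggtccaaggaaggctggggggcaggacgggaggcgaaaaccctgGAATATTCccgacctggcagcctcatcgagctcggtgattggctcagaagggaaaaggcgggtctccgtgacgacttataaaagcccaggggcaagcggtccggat
HSPB1 (chr7:76302473-76302672, plus strand): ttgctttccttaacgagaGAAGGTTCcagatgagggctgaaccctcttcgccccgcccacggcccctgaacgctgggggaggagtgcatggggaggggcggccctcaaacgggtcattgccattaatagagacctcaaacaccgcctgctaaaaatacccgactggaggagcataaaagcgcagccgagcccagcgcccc
HSPA6 (chr1:161524340-161524539, plus strand): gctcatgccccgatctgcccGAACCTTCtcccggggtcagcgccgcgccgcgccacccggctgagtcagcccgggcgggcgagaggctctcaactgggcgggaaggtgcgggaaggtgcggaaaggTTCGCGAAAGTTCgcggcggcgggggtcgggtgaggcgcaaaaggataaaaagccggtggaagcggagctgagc
HSPH1 (chr13:31162389-31162588, minus strand): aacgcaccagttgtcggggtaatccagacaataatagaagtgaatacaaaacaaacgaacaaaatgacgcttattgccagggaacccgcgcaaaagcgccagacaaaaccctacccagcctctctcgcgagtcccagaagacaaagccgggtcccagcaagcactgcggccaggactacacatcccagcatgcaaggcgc

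The match of HSPA1A lies 106 to 99 bases before its start, and HSPA1B holds the same 8 letters 105 to 98 bases before its own. Over the 250 bases before the start, the HSPA1A and HSPA1B windows were identical in 93.6% of aligned positions. HSPA1A and HSPA1L are transcribed away from each other from starts 260 bases apart, and 241 bases are common to their windows, so that both genes share this one match. The match of HSPB1 lies 182 to 175 bases before its start and the 3 units of HSPA6 lie 74 to 62 bases before its start. A match describes letters and shows no binding, and the lack of one in the HSPH1 window says only that these letters are not in that window. HSPA4L, among the larger falls, held a pair 170 to 163 bases before a start.

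Between low-attachment plates with and without FP001, no member was called, where 0.11% of all genes were (0.0366% higher and 0.0733% lower). In 7 of the 22 the log2 fold change was below 0, against 48.4% of all genes. FP001 arrays lay above all low-attachment arrays in 2 genes, BAG5 and HSPB1, and below them in 0, against 8.48% and 9.01% of all genes. At an unadjusted p under 0.05 the count was also 0 of 22, against 11.6% of all genes, and adjusted p-values ran from 0.507 to 0.961. The 95% intervals of all 22 differences held 0, and 18 lay within 0.5 of 0 on the log2 scale, with bounds from −0.44 to 0.58 over all 22. For HSPH1 the difference was 0.11 (interval −0.15 to 0.37), for HSPB1 0.07 (−0.06 to 0.19), for HSPA1A −0.01 (−0.17 to 0.14) and for HSPA9 −0.02 (−0.16 to 0.12). These intervals bound the differences and do not show that the 2 media act alike. The largest was HSPA14, at 0.27 ± 0.14 (interval −0.04 to 0.58, limma adjusted p = 0.507), and it was 0.10 without low-attachment replicate 1. Replicate numbers may pair the arrays of these 2 groups. With the number as a block 1.3% of all genes were called and still no member. HSPA14 then had the smallest p of the members (0.0136 unadjusted, limma adjusted p = 0.177).

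**Figure D4:**
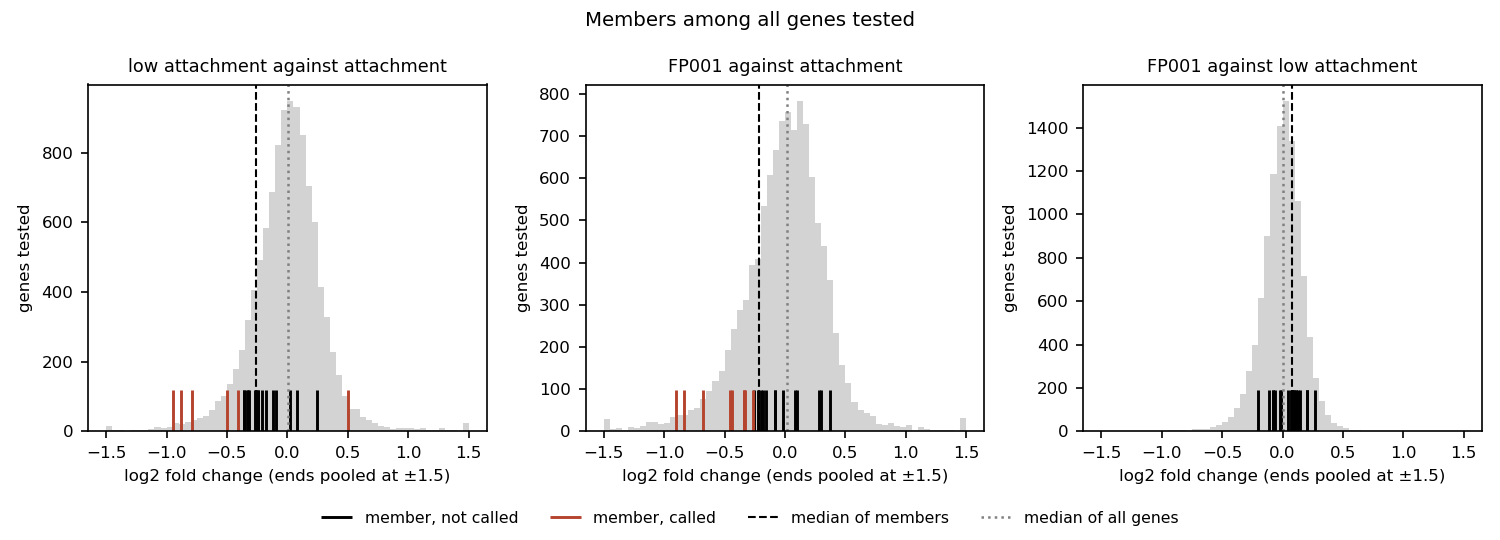
Histograms of the log2 fold changes of the 10916 genes tested, with ticks for the 22 members (red where called) in each of 3 comparisons, and lines at the median of the members (dashed) and of all genes (dotted). The members' median lies at −0.26 and −0.21 in the comparisons with attachment plates and at 0.08 between the low-attachment groups, against 0.01, 0.02 and 0.01 for all genes.

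Arrays numbered 1 read low for many of these genes. Among the 3 FP001 arrays, replicate 1 was the lowest for 11 of the 22 members (50%, against 37.0% of all genes). Among the 3 low-attachment arrays, replicate 1 was the lowest for 13 of the 22 (59.1%, against 40.1% of all genes). Without the arrays numbered 1 in both groups, a setting chosen after the values were seen, 6 members were called on low-attachment plates and 8 with FP001, and the log2 fold change of HSPH1 was −0.83 and −0.72. The share of all genes called in this setting is not given, so these counts cannot be set against it.

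Genes that work with these chaperones were counted from lists fixed with earlier results of these data known. Of 15 co-chaperones of HSP90 and HSP70 tested, 3 fell on low-attachment plates and none rose (list median −0.26), where 5.76% of all genes were called lower and 4.31% higher. With FP001 3 fell and 1 rose against attachment plates (list median −0.16), where 11.4% and 8.08% of all genes were called lower and higher. PPID, a cyclophilin that binds HSP90, fell 1.75-fold (−0.80 ± 0.11, limma adjusted p = 0.00220) and with FP001 1.495-fold (−0.58 ± 0.11, limma adjusted p = 0.00604). STIP1, which joins HSP70 to HSP90, fell 1.481-fold and 1.404-fold (limma adjusted p = 0.00815 and 0.0103). CHORDC1, an HSP90-binding protein, fell 1.56-fold and 1.82-fold (limma adjusted p = 0.0346 and 0.00621). The 1 rise, by 1.38-fold (limma adjusted p = 0.0183), was ITGB1BP1, which binds integrin tails and is not known as a co-chaperone. Without attachment replicate 2 the calls of CHORDC1 (adjusted p = 0.266 and 0.0775), of ITGB1BP1 (0.159) and of PPID with FP001 (0.0609) were lost, and without attachment replicate 3 those of STIP1 (0.0751 and 0.0766). CHORDC1 on low-attachment plates was also lost without each of the 3 arrays of that group (0.0643 to 0.0914).

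Of 11 heat shock factors and genes linked to them, 2 fell and 1 rose on low-attachment plates, and 1 fell and 2 rose with FP001, against 10.1% and 19.5% of all genes called. HMOX1, which breaks down heme, fell 1.92-fold and the HSF1-regulated IER5 fell 1.4002-fold on low-attachment plates (limma adjusted p = 0.0412 and 0.0394), and IER5 fell 1.42-fold with FP001 (0.0227). The autophagy receptor SQSTM1 rose 1.24-fold and 1.36-fold (limma adjusted p = 0.0405 and 0.00612), and with FP001 the secreted chaperone CLU rose 1.24-fold (0.0341). Each of these calls was lost without 1 or more single arrays, with highest adjusted p-values of 0.189 for HMOX1, 0.223 and 0.154 for IER5, 0.183 and 0.0543 for SQSTM1 and 0.146 for CLU.

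Among 17 partners of the chaperonin, 3 fell and none rose on low-attachment plates (5.76% and 4.31% of all genes), namely the prefoldin subunit PFDN2 (1.25-fold), the tubulin cofactor TBCE (1.38-fold) and the chaperonin-like MKKS (1.42-fold). With FP001, where 19.5% of all genes were called, 2 of the 17 were: MKKS fell 1.404-fold and the tubulin cofactor TBCC rose 1.24-fold. Leaving out attachment replicate 2 ended each of these 5 calls (adjusted p = 0.165, 0.112, 0.144, 0.119 and 0.140), TBCE was also lost without attachment replicate 3 (0.0767), PFDN2 without 6 of the 8 arrays one at a time, and TBCC without each of the 8. Of 16 chaperones and folding enzymes of the endoplasmic reticulum, 1 rose and none fell on low-attachment plates, and 1 rose and 1 fell with FP001, no more than the 10.1% and 19.5% of all genes called. The rise was HYOU1, a relative of HSP110 within the endoplasmic reticulum, by 1.32-fold and 1.37-fold (limma adjusted p = 0.0282 and 0.0114), and the fall was the transcription factor XBP1 (1.52-fold, limma adjusted p = 0.0280). On low-attachment plates HYOU1 was also lost without low-attachment replicate 1 or 2 (adjusted p = 0.0695 and 0.0580), and XBP1 without FP001 replicate 2 or 3 (0.0839 and 0.0724). Both HYOU1 calls ended without attachment replicate 2 (adjusted p = 0.133 and 0.0739) or 3 (0.130 and 0.0622), and XBP1 without attachment replicate 2 (0.244). The 13 mitochondrial partners held no call on low-attachment plates, and with FP001 the protease AFG3L2 rose 1.203-fold (limma adjusted p = 0.0365), a call lost without 7 of the 8 arrays one at a time. These counts, 0 and 1 of 13, lie below the 10.1% and 19.5% of all genes called. With each array shifted to a common median, SQSTM1 missed the threshold on low-attachment plates (adjusted p = 0.0656) and CLU, AFG3L2 and TBCC with FP001 (0.0551, 0.0665 and 0.0781), and with quantile normalization PFDN2 missed it (0.0511). In the order of the last 4 lists, the median log2 fold changes were −0.08, −0.09, 0.09 and −0.07 on low-attachment plates and −0.08, −0.02, 0.11 and −0.04 with FP001. In the fit of all probe sets, CHORDC1, HMOX1, HYOU1, IER5, PFDN2 and SQSTM1 missed the threshold on low-attachment plates (adjusted p = 0.0592 to 0.0926) and TBCC and XBP1 with FP001 (0.0675 and 0.0527). No partner gene of these lists was called between the low-attachment groups.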

How the data were processed

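The deposited values are linear intensities, 1 per probe set and array, made by the authors with MAS5, per the submitters' processing notes. What MAS5 release, scaling target and annotation were used was not given in the sources used here. RNA (100 ng) was labelled by a 3′ in vitro transcription kit, per the labels' protocols, whereas the probe-set identifiers are of a kind used on whole-transcript arrays, so which part of a transcript a value reads is uncertain. Symbols came from the platform annotation in GEO, which gave 1 symbol to 16098 probe sets, several to 0 and none to 37519, which stay unnamed here. All 16098 matched RefSeq by gene identifier.

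Groups and replicate numbers came from the titles. Values were taken as log2 of the deposited intensity, with no pseudocount or further scaling. Each gene was represented by its brightest probe set on average, and 10916 genes were fitted with limma 3.58.1 in R 4.3.3 (3 group means, lmFit, eBayes with a trend). Tests were two-sided with Benjamini-Hochberg adjustment over all genes and a threshold of 0.05. The fit was tested on simulated data.

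The members and lists were chosen with earlier results of these data known. Values on every array were given, by rule, for called members, the brightest member of each family and the largest change in each compartment. Those of HSPA1A, HSPA4, HSPA6 and DNAJC9-AS1 were added after their values were seen. Partner genes were named where called. Same-numbered arrays of the low-attachment groups with and without FP001 deviated together (correlations of 0.483, 0.309 and 0.231), and unlike numbers gave −0.353 to 0.133. The labels state no pairing, so the numbers may pair these arrays, which was not tested. Attachment arrays did not deviate together with arrays of the same number (−0.205 and 0.138 with low attachment, −0.256 and 0.00762 with FP001). The alternatives were other scalings, filters and pseudocounts, a block, a fit of probe sets and leaving out arrays.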

Additional observations from a re-analysis of the deposited data

How the results depend on the processing

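Of 1484 log2 fold changes computed under an alternative for single genes, 1275 kept their direction and their side of the threshold, 140 kept their direction and missed it, 8 newly passed and 61 changed sign. Most of the 1484 were not called in the main fit and had no call to lose. The 1275 therefore do not measure how well the calls held. With quantile normalization, a common median, no filter, a filter on 2 arrays, 16 added to each intensity or a fit of all probe sets, 5 to 7 members were called on low-attachment plates and 7 to 9 with FP001 against attachment plates. Leaving out 1 array gave 3 to 9 and 4 to 9 members, and medians of −0.31 to −0.23 and −0.28 to −0.17. The lowest of these counts came from leaving out attachment replicate 3, which leaves 1 array in that group. With FP001 the count was 5 without FP001 replicate 2. Shares of all genes called are not given for the settings above. A change in a count therefore cannot be taken as particular to the members. Between the low-attachment groups no member was called under any of these settings, and the median was −0.0034 to 0.088. With the replicate block 8 members were called on low-attachment plates (HSPA4 and HSPA9 in addition, adjusted p = 0.0374 and 0.0433), 9 with FP001 and 0 between the low-attachment groups. Over all genes the block called 12.6%, 21.7% and 1.3% in these comparisons, against 10.1%, 19.5% and 0.11% without it.

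With all 9 arrays 0 members and 0 genes were called against attachment plates, and the members' medians were 0.97 and 1.03, where the medians of all genes were 0.70 and 0.69. Log2 fold changes on low-attachment plates that turned positive there were 1.62 for BAG2, 1.73 for BAG3, 1.71 for BAG4, 1.01 for HSPA12A, 2.25 for HSPA1A, 1.77 for HSPA1B, 0.67 for HSPA2, 1.74 for HSPA4, 2.16 for HSPA9, 1.52 for HSPB1, 0.51 for HSPB8, 0.30 for HSPBAP1, 1.69 for HSPH1, 0.076 for IER5, 1.53 for MKKS, 2.18 for PFDN2, 0.62 for PPID and 0.79 for STIP1. With FP001 they were 1.71 for BAG2, 1.66 for BAG3, 1.80 for BAG4, 1.122 for HSPA12A, 2.24 for HSPA1A, 1.68 for HSPA1B, 0.55 for HSPA2, 1.81 for HSPA4, 2.14 for HSPA9, 1.58 for HSPB1, 0.22 for HSPBAP1, 1.80 for HSPH1, 0.057 for IER5, 1.55 for MKKS, 0.84 for PPID, 0.87 for STIP1 and 0.28 for XBP1. The array added correlated with no other. The cause was not tested.

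The other changes of sign were of uncalled values near 0. Those on low-attachment plates were BAG5 with a common median (−0.0021) and HSPB8 without attachment replicate 2 (0.027) or low-attachment replicate 2 (0.013). With FP001 against attachment plates they were BAG4 with quantile normalization (0.072), without FP001 replicate 3 (0.023) or attachment replicate 3 (0.033), HSPA14 with quantile normalization (0.0025), the replicate block (0.033) or without attachment replicate 3 (0.042), and without attachment replicate 3 also DNAJC27-AS1 (0.023) and HSPB8 (−0.062). With FP001 against low attachment they were HSPA1A without FP001 replicate 1 (0.023), low-attachment replicate 2 (0.026) or the arrays numbered 1 (0.0087), HSPA9 without FP001 replicate 1 (0.012) or low-attachment replicate 3 (0.0056), and BAG2 without FP001 replicate 3 (−0.00074). HSPA1L gave −0.0025 without FP001 replicate 3, −0.013 without low-attachment replicate 1 and −0.0045 without the arrays numbered 1. Without low-attachment replicate 1 HSPA4 (−0.0034), HSPD1 (−0.026) and HSPH1 (−0.0063) turned, as did HSPB2-C11orf52 without low-attachment replicate 2 (−0.051), HSPA2 without low-attachment replicate 3 (0.013) and HSPBAP1 without the arrays numbered 1 (0.018). At the other end of the range without single arrays these values were −0.27 (HSPB8) on low-attachment plates, −0.19 (DNAJC27-AS1), −0.21 (HSPA14), 0.23 (HSPB8) and −0.062 (BAG4) with FP001 against attachment, and 0.21 (BAG2), 0.082 (HSPA1L), −0.27 (HSPA2), 0.15 (HSPA4), −0.058 (HSPA9), 0.26 (HSPD1), 0.24 (HSPB2-C11orf52) and 0.22 (HSPH1) between the low-attachment groups. The cause was not tested. Some of these genes, such as HSPB8, DNAJC27-AS1 and HSPB2-C11orf52, read near the array median, and how far background limits them was not tested. Others were bright. HSPA1A, HSPA9, HSPH1 and HSPA4 lay at percentiles 99.7, 99.8, 96.6 and 95.9 of level among the genes tested.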

Other observations

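The array titled attachment replicate 1 entered no comparison. On it the 3 probe sets of HSPA1A that held identical values on the 8 other arrays read 16.7, 19.4 and 3.11, the matching 3 of HSPA1L read 48.2, 34.3 and 12.6, and a further probe set of HSPA1L read 3064 against 126 or less on the other arrays.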
